A study of Mus musculus with 2 samples.

Results

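Mir335, Mir483 and Mir675 are microRNA genes that lie inside 3 imprinted host genes, Mest, Igf2 and H19. They were chosen by name and by host gene, with earlier results of these data known, and make up 3 of the 1973 microRNA genes measured. Small RNA was sequenced from whole liver of B6NCrl mouse embryos at embryonic day 14.5. There was 1 group with 2 libraries, labelled biological replicates 1 and 2, and no other genotype, treatment or age. By the labels, each sample is 1 liver with its own collection day, yet they give pooled sexes and the same donor for both, and whether they are separate animals is not certain. With 1 library on each side of the comparison, p-values below measure only the counting error of these libraries, which may differ for technical reasons. Of 6395680 reads in replicate 1, 2353946 fell on the strand of a microRNA gene, and of 8068090 reads in replicate 2, 3132763 did. These same-strand totals are the base of each level, given as CPM (counts per 1000000).

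An imprinted gene is transcribed mainly from the copy inherited from one parent. Mest, which encodes a hydrolase-like protein of the embryonic mesoderm and its derivatives, and Igf2, the fetal growth factor insulin-like growth factor 2, are active on the paternal copy, whereas the long non-coding RNA H19 is made from the maternal copy of the same domain as Igf2. MicroRNAs are cut from a hairpin in a longer transcript and repress mRNAs that pair with the seed, the bases from position 2 to position 8 of the mature RNA. The mouse microRNA of H19 is known to restrain growth of the placenta, and in human cells the microRNA of MEST is known as a suppressor of breast cancer metastasis.

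The hairpins are shown because they place the counted reads in the genome and show which stretches can give rise to a mature RNA. Positions are on GRCm38 (mm10). Mir335 lies at chr6:30741299-30741396 on the plus strand, Mir483 at chr7:142654924-142654996 on the minus strand and Mir675 at chr7:142577064-142577147 on the minus strand. Sequences are RefSeq's for GRCm38.p6, 5′ to 3′, and all 3 genes were matched by symbol and position. Capitals mark the 2 mature arms of each hairpin.
Mir335: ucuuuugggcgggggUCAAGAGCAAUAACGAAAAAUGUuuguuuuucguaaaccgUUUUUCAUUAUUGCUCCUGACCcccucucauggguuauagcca
Mir483: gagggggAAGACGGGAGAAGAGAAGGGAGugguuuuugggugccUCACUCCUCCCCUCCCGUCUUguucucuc
Mir675: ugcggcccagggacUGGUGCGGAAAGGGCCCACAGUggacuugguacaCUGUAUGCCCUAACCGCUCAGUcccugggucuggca

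The mature RNAs are shown with the seed in capitals, since the seed decides which mRNAs each can pair with.
mmu-miR-335-5p: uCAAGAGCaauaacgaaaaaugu
mmu-miR-335-3p: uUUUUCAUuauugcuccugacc
mmu-miR-483-5p: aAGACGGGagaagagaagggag
mmu-miR-483-3p: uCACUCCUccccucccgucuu
mmu-miR-675-5p: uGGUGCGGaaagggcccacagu
mmu-miR-675-3p: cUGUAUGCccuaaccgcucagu

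The 6 arms carried 6 different seeds, so the 3 genes form no seed family. None of the other mature mouse microRNAs among the 1738 in the sequence table had any of these seeds. The hairpins shared no stretch of 20 bases with another of the 2201 microRNA genes of the GENCODE M21 annotation, and no transcript of a gene other than the host held any of the 6 mature sequences. The tables give 1 count per gene, so the counts of the 5p and 3p arms of a hairpin cannot be told apart.

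The hairpins differed in base composition. Mir335 had a GC content of 42.9%, Mir483 of 58.9% and Mir675 of 63.1%, against a median of 51.7% over 1005 mouse hairpins. The 5p arm of Mir335 was rich in A (12 of 23 bases) and had a GC content of 30.4%, lower than that of all but 1.55% of mature microRNAs. The arms of Mir483 mirror each other in composition, with 21 G or A among the 22 bases of miR-483-5p and 19 C or U among the 21 bases of miR-483-3p. Folded in silico, the Mir675 hairpin had the lowest minimum free energy, -56.0 kcal/mol over 84 bases. The values were -44.3 kcal/mol over 98 bases for Mir335 and -33.8 kcal/mol over 73 bases for Mir483. Per 100 bases that is -66.7, -45.2 and -46.3 kcal/mol for Mir675, Mir335 and Mir483. In each hairpin 16 or 18 bases of one arm were paired with the other arm.

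The genes occupy different parts of their hosts. Mir335 lay in an intron in all 7 Mest transcripts that span it. That intron is 1316 bases long, and the hairpin starts 474 bases after the upstream exon and ends 744 bases before the next one. It is intron 3 of the 13-exon transcript Mest-202 and intron 2 of the 12-exon transcripts Mest-210 and Mest-211. Mir483 lay in an intron in all 7 Igf2 transcripts that span it, 657 bases after the upstream exon and 475 bases before the next one in an intron of 1205 bases. This is intron 2 of the 4-exon transcript Igf2-201. The annotation also has a longer gene on the same strand, Gm49394, that spans Mir483. Mir675 lay in an exon in 3 of the 4 H19 transcripts that span it, among them exon 1 of the best supported transcript, which has 5 exons and a first exon of 1315 bases. In the remaining transcript the hairpin lies in an intron. Mir675 and Mir483 are on the same strand of chromosome 7 with 77776 bases between them. No other microRNA gene lies inside Mest, Igf2 or H19, and none of the 3 hairpins overlaps an annotated protein-coding or long non-coding gene on the opposite strand. Opposite-strand counts were 3 in replicate 1 and 1 in replicate 2 at Mir335 and 0 in both libraries at Mir483 and Mir675.

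**Figure D1:**
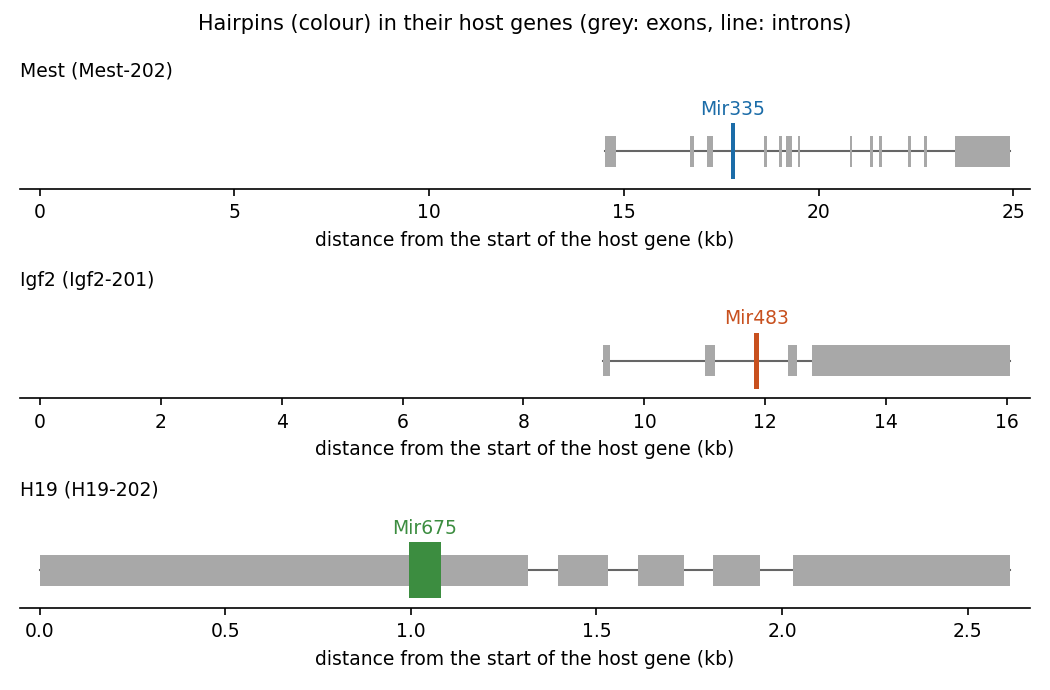
Hairpins of Mir335, Mir483 and Mir675 (colour) in a spanning transcript of Mest, Igf2 and H19 (grey boxes, exons; line, introns), by distance in kb from the start of the host gene, each gene to its own scale. Mir335 and Mir483 fall in introns, 474 and 657 bases after the upstream exon, and Mir675 falls in exon 1 of the H19 transcript drawn.

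The labelled tissue was checked by markers of liver cells and red cells only. The Hox cluster and neural lists, given further below, differed more between the 2 libraries than these did. Liver cell microRNAs, led by Mir122, took 10.6% of the counts in replicate 1 and 12.0% in replicate 2, and red cell microRNAs, led by Mir451a, took 5.15% and 4.14%. Fetal liver is also a site of red blood cell formation. In both libraries 332 genes had at least 10 counts, and all 3 imprinted-host genes were among them. A count of 0 would allow a level of up to 1.27 CPM (3 counts) in replicate 1 and of up to 0.958 CPM in replicate 2. This limit and all intervals cover counting error alone and treat each read as separate. PCR copies are not separate molecules, so the true uncertainty may be larger.

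Mir335, from the Mest intron, was among the most abundant microRNAs of the liver by counted reads. Reads with several positions, 34.0% of all reads in replicate 1 and 33.1% in replicate 2, were not counted. Genes that share sequence with other copies may thus be undercounted, and shares and ranks here and below hold for counted reads only. It had 77028 counts (32723 CPM) in replicate 1 and 96400 counts (30772 CPM) in replicate 2, a mean of 31747 ± 1380 CPM (SD, n = 2). Its share of the counts was 3.27% in replicate 1, with a 95% Clopper-Pearson interval of 3.25 to 3.30, and 3.08% in replicate 2, with an interval of 3.06 to 3.10. It ranked 7 of 1973 in each library. The SD was 4.35% of the mean.

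Mir483, from the Igf2 intron, was in the middle. It had 6180 counts (2625 CPM) in replicate 1 and 12263 counts (3914 CPM) in replicate 2, a mean of 3269.9 ± 912 CPM. Its share was 0.263% (0.256 to 0.269) in replicate 1 and 0.391% (0.385 to 0.398) in replicate 2, and its rank 61 and 54. Relative to the mean, its SD was the widest of the 3 genes, at 27.9%.

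Mir675, from the H19 exon, was the lowest. It had 341 counts (145 CPM) in replicate 1 and 495 counts (158 CPM) in replicate 2, a mean of 151 ± 9.29 CPM. Its share was 0.0145% (0.0130 to 0.0161) in replicate 1 and 0.0158% (0.0144 to 0.0173) in replicate 2, at rank 174 and 171. The order Mir335, Mir483, Mir675 was the same in both libraries, and no value of one gene reached a value of the next.

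**Figure D2:**
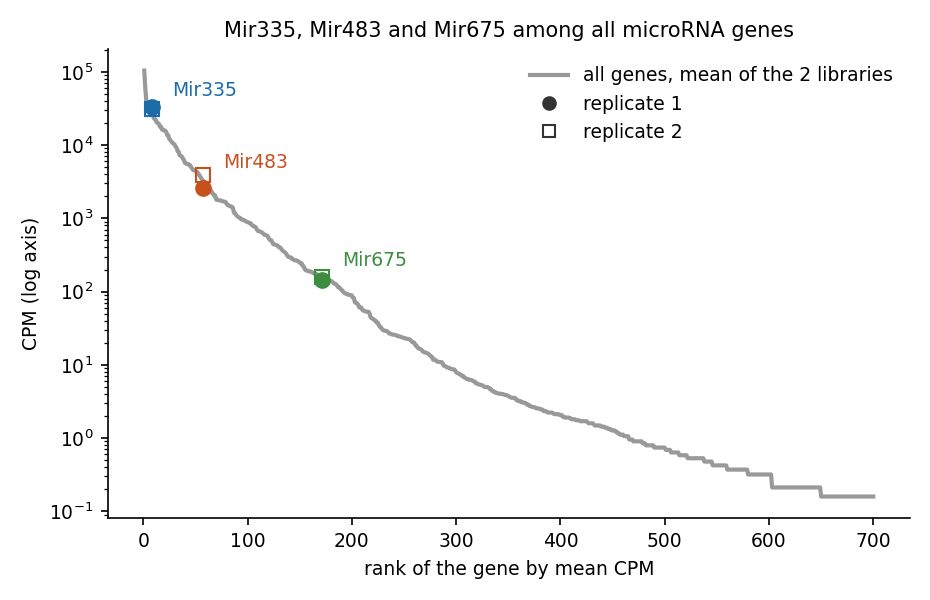
CPM on a log axis against the rank of each microRNA gene by mean CPM, with the grey line for the mean over the 2 libraries of all genes with a count. Filled circles are replicate 1 and open squares replicate 2. Mir335 stands near the top (mean 31747 CPM), Mir483 lower (3269.9 CPM) and Mir675 lower again (151 CPM). On this log axis the gap between libraries is widest at Mir483.

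Together the 3 genes took 3.55% of the counts in replicate 1 and 3.48% in replicate 2. Mir335 made up 92.2% of this sum in replicate 1 and 88.3% in replicate 2, Mir483 7.40% and 11.2%, and Mir675 0.408% and 0.453%. The sum thus hides the difference in Mir483. Mir335, with a larger share, moved the other way, from 3.27% of all counts in replicate 1 to 3.08% in replicate 2.

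The neighbours in the order of levels were mostly within the libraries' spread. The gene next above Mir335, Mir17 of the growth-associated miR-17-92 cluster, reached 31476 CPM in replicate 1 and 33264 CPM in replicate 2, so the ranges overlapped. The next below, Mir21a, had 30177 and 25583 CPM in replicates 1 and 2, both below the values of Mir335. Mir483 stood between Mir10b, a Hox cluster microRNA with 6365 CPM in replicate 1 against 583 CPM in replicate 2, and Mir98 of the let-7 family with 3204 and 3216 CPM. The range of Mir483 overlapped both. Mir675 likewise overlapped its neighbours Mir106a (139 CPM in replicate 1, 165 CPM in replicate 2) and Mir146 (141 and 158 CPM), the last of which shares a 20-base stretch with another hairpin and is uncertain.

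By part of the host, Mir335 and Mir483 were compared with other intronic microRNA genes and Mir675 with exonic ones. Of 729 genes that lie in introns, 135 had at least 10 counts in each library, with a median of 177 CPM. Mir335 ranked 3 among these 135, after Mir26b and Mirlet7g, and made up 10.6% of all intronic counts in replicate 1 and 10.05% in replicate 2. Mir483 ranked 21 and made up 0.854% of intronic counts in replicate 1 and 1.28% in replicate 2. Of 234 genes that lie within an exon, 69 had at least 10 counts, with a median of 132 CPM, and Mir675 ranked 32 among them, near the median. A gene that any annotated transcript holds within an exon was counted as exonic, which places Mir675 there. These ranks hold for counted reads only, are descriptions, and no test was made of them.

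The comparison that the design allows is that of the 2 libraries. Each gene's counts were set against the library totals in an exact binomial test, two-sided, with Benjamini-Hochberg adjustment over the 332 genes. The test compares the reads of these libraries and not conditions. Of the 3 genes 2 differed, in opposite directions. Over all genes tested, 41.0% differed, with 17.8% higher in replicate 1 and 23.2% higher in replicate 2, so a call alone is common at this depth and the size of a difference says more.

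Mir483, at 2625 CPM in replicate 1 and 3914 CPM in replicate 2, was lower in replicate 1. The ratio of replicate 1 over replicate 2 was 0.671 (95% exact interval 0.650 to 0.692), a log2 ratio of -0.58, with an adjusted p of 1.94e-148 by the exact binomial test. The log2 ratio was larger in size than that of all but 38 of the 332 genes, whose median absolute log2 ratio was 0.16. Among the 40 other genes within 2-fold of its level, 2 differed more between the libraries, and the median absolute log2 ratio there was 0.09.

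Mir335, at 32723 CPM in replicate 1 and 30772 CPM in replicate 2, was higher in replicate 1 by a small amount. The ratio was 1.06 (1.05 to 1.07), a log2 ratio of 0.09, with an adjusted p of 8.41e-36 by the exact binomial test. That size was below the median of all genes tested, and 229 of the 332 genes differed by more. Of the 17 other genes within 2-fold of its level, 9 differed by more, and 16 of the 17 passed the test. Its difference was thus no larger than the differences usual for genes of this level.

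Mir675, at 145 CPM in replicate 1 and 158 CPM in replicate 2, did not pass the test. Its ratio of replicate 1 over replicate 2 was 0.917 with an interval of 0.796 to 1.05, a log2 ratio of -0.12 and an adjusted p of 0.367 by the exact binomial test. The interval includes a ratio of 1 and excludes a ratio as low as that of Mir483, the gene of the same imprinted domain.

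**Figure D3:**
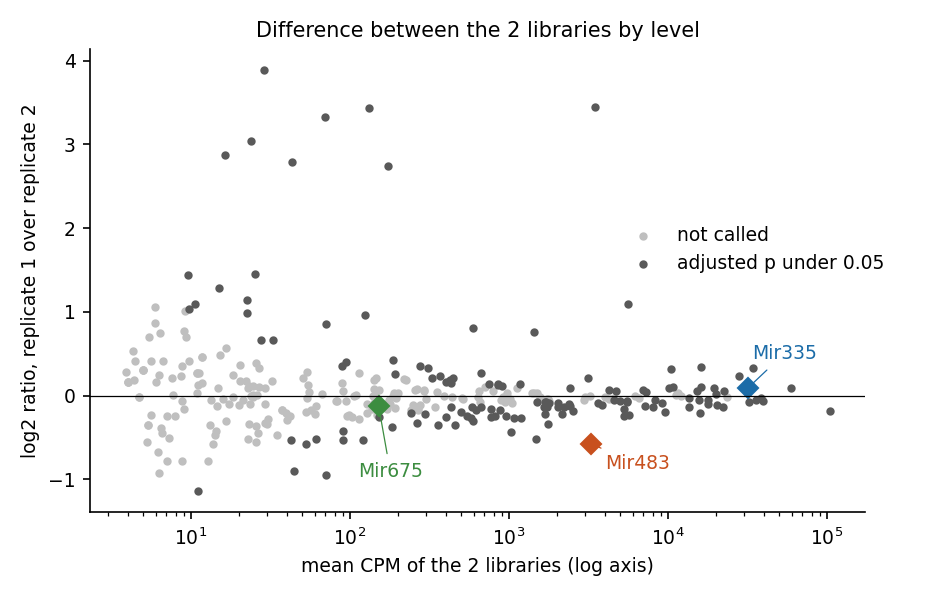
Log2 ratio of replicate 1 over replicate 2 against mean CPM (log axis) for the 332 genes that reached 10 counts in both libraries. Dark points passed the exact binomial test. Mir483 (-0.58) lies below the other genes of its level, while Mir335 (0.09) and Mir675 (-0.12) lie within theirs.

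Ratios between the genes within a library do not depend on how the libraries are scaled. Mir335 had 12.5 times the counts of Mir483 in replicate 1 (95% exact interval 12.1 to 12.8) and 7.86 times in replicate 2 (7.71 to 8.01). The intervals were far apart. Mir483 had 18.1 times the counts of Mir675 in replicate 1 (16.2 to 20.3) and 24.8 times in replicate 2 (22.6 to 27.2), again without overlap. Mir335 had 226 times the counts of Mir675 in replicate 1 (203 to 252) and 195 times in replicate 2 (178 to 213), and these intervals overlapped. The pairs with Mir483 were thus the ones whose intervals lay apart. An overlap of intervals does not show that the ratio of Mir335 over Mir675 was unchanged, and that was not tested.

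**Figure D4:**
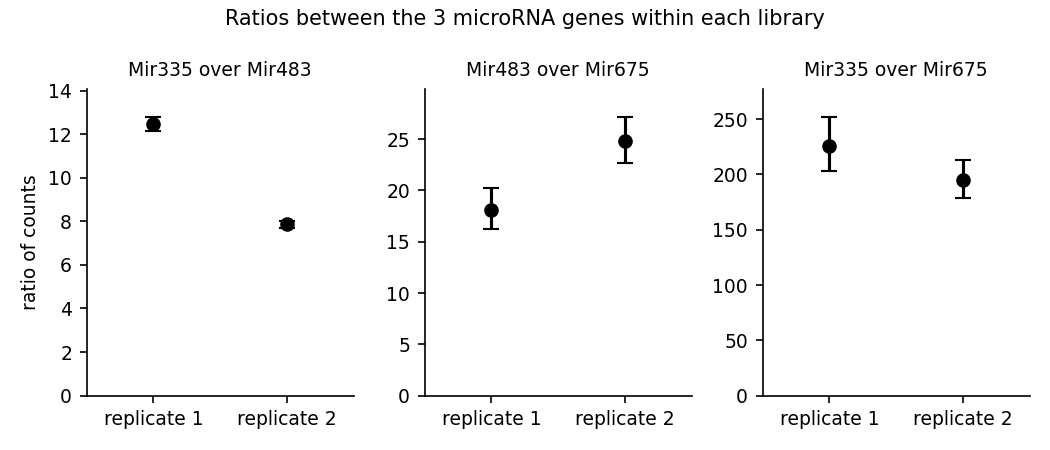
Ratio of counts between pairs of the 3 genes in replicate 1 and replicate 2, with 95% exact intervals that cover counting error. The ratio of Mir335 over Mir483 is 12.5 in replicate 1 and 7.86 in replicate 2, and only for Mir335 over Mir675 do the intervals of the 2 libraries overlap.

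The genes whose ratio between the libraries was nearest to each of these were sought among the 225 genes averaging 100 counts or more, by the absolute difference in log2 ratio over the 2 libraries. For Mir483 they were Mir505 (42.5 CPM in replicate 1 and 63.5 CPM in replicate 2), Mir293 (34.8 and 50.4 CPM) and Mir3072 (98.6 and 142 CPM), all far below its level. For Mir335 they were Mir351 (2503 and 2353 CPM), Mir223 (10498 and 9885 CPM) and Mir27b (1149 and 1082 CPM), which shares a 20-base stretch with another hairpin. For Mir675 they were Mir34a (58.2 and 63.5 CPM), Mir744 (6822 and 7443 CPM) and Mir1306 (158 and 172 CPM). With 2 libraries a ratio is a single value, so nothing is read from the likeness.

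MicroRNAs of the imprinted Gnas and Dlk1-Dio3 loci were mostly a little lower in replicate 1, in the direction of Mir483 but by less. Both genes of the Gnas locus passed the test, Mir298 with 2375 CPM in replicate 1 against 2687 CPM in replicate 2 and Mir296 with 1571 and 1823 CPM. Of the 35 tested genes of the Dlk1-Dio3 locus, whose microRNAs come from the maternal copy, 24 were lower and 2 higher in replicate 1, with a median log2 ratio of -0.14. Their lowest was -0.36, so none reached the -0.58 of Mir483. Of 4 tested genes of the Sfmbt2 locus, whose copies share sequence and are uncertain, 1 was lower and none higher, with a median of -0.12. The median over all 332 genes was -0.03, and 23.2% of them were lower in replicate 1 by the same test. The share at Sfmbt2 was near that, and nothing is read from it. The hepatocyte list, described below, had a median of -0.15, with 4 of 6 tested members lower. A shift of this size was thus not particular to imprinted loci. No library scaling changed the sign of these medians.

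Markers of cell types also differed between the libraries, and their part in the differences of Mir335 and Mir483 was not tested. In whole tissue, fewer cells of a type and less RNA per cell cannot be told apart. The counts of list members below stand beside a share over all 332 genes of 17.8% higher and 23.2% lower in replicate 1. The hepatocyte list summed to 106495 CPM in replicate 1 and 120068 CPM in replicate 2, with 4 of 6 tested members lower in replicate 1 and none higher. Its ratio of 0.887 (0.882 to 0.891) went the way of Mir483 but was nearer to 1. Mir122 alone made up most of both hepatocyte sums, with 97348.5 CPM in replicate 1 and 110371 CPM in replicate 2. The ratio and its interval thus mainly follow Mir122. The erythroid list summed to 51512 CPM in replicate 1 and 41374 CPM in replicate 2, with 4 of 7 members higher in replicate 1 and 1, Mir486, lower. The mesenchymal list, of the connective tissue cells in which Mest is typically active, summed to 53017 CPM in replicate 1 and 47358 CPM in replicate 2. Most of each sum came from Mir21a, with 30177 CPM in replicate 1 and 25583 CPM in replicate 2, so the sums mainly follow that gene. Of the 7 tested members of the list, 3, Mir21a among them, were higher in replicate 1 and 1, Mir214, was lower.

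The endothelial list reached 62537 CPM in replicate 1 and 58639 CPM in replicate 2, with 1 of 3 members higher in replicate 1. The white cell list reached 12007 CPM in replicate 1 and 11395 CPM in replicate 2, with 1 of 4 tested members higher and 1 lower in replicate 1. Its median log2 ratio was 0.02, and of the 11 list medians it alone changed sign with the scaling, to -0.0044 without the highest gene in the totals. The Hox cluster list, microRNAs that mark body position, summed to 14746 CPM in replicate 1 against 4577 CPM in replicate 2, and all 5 tested members were higher in replicate 1. The neural list reached 736 CPM in replicate 1 and 330 CPM in replicate 2, with 7 of 9 tested members higher in replicate 1. Its Mir124a-2, Mir124a-3 and Mir9-2 had no count in either library, but each shares a 20-base stretch with another copy, and reads with several positions were not counted, so these zeros do not show that the microRNAs were absent. The pancreas and muscle list reached 1242 CPM in replicate 1 and 1257 CPM in replicate 2, with 1 of 4 tested members, Mir206, higher in replicate 1, and Mir1a-1, Mir133a-1 and Mir133a-2, which share such stretches too, had no count. With so few members tested, the calls in the endothelial, white cell, and pancreas and muscle lists are near the overall shares of 17.8% and 23.2%, and nothing is read from them.

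**Figure D5:**
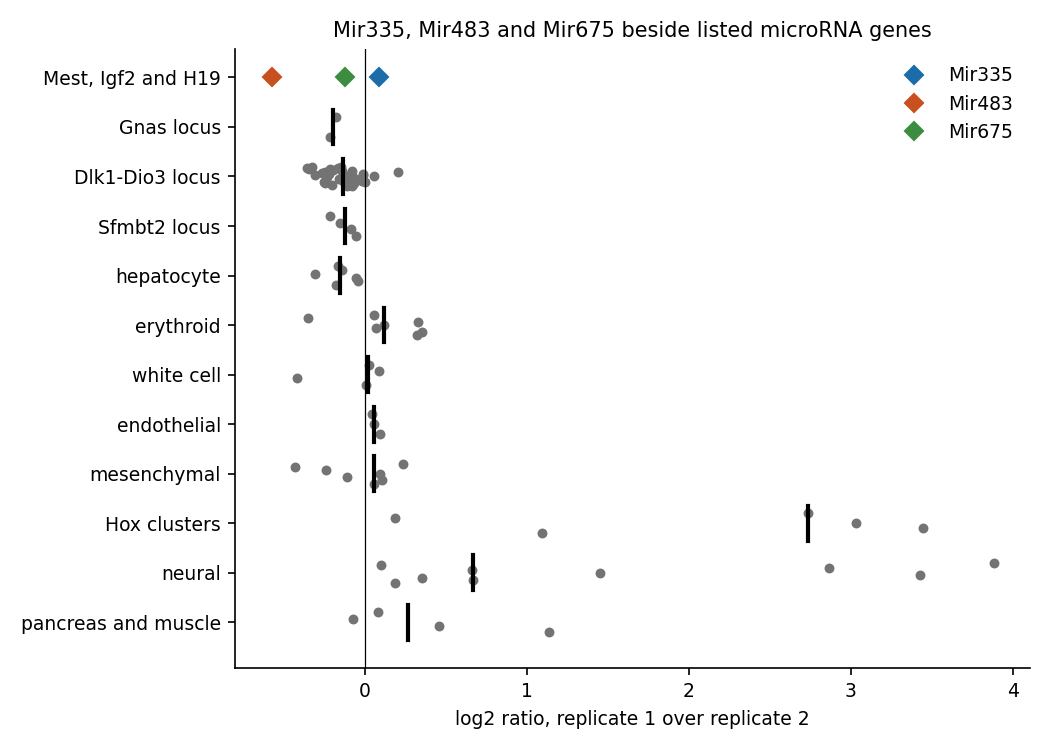
Log2 ratio of replicate 1 over replicate 2 for Mir335, Mir483 and Mir675 (coloured diamonds) and for the tested genes of other imprinted loci and of cell type lists (grey points, with a bar at the list's median). Mir483 lies at -0.58, beyond the lowest gene of every list shown, and the Hox cluster and neural lists extend far to the right.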

How the data were processed

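Each library has 1 deposited table of raw read counts by microRNA gene, and notes deposited with it name assembly mm10 and annotation M4. Which aligner and counter were used is not given in the sources used here. Same-strand counts were used, without the rows for unmapped reads (18.6% of reads in replicate 1 and 17.7% in replicate 2), for reads with several positions (34.0% and 33.1%) and for reads outside the genes of that strand (10.6% and 10.4%). Symbols, hosts and exons came from GENCODE M21, with 1894 of 1973 IDs matched and 3 counts in all at the others.

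With 1 library on each side of the comparison, edgeR's quasi-likelihood test has no residual degrees of freedom, so the main test was an exact binomial test (SciPy 1.17.1, 2 times the smaller tail, threshold 0.05) of genes with 10 or more counts in both libraries. Log2 ratios had 0.5 added to each count, whereas ratios and their intervals had nothing added. The steps were tested on simulated data with counting error only. Such data cannot show how the test behaves when libraries differ by more than counting error. Hairpins were folded with ViennaRNA 2.7.2. Alternatives were TMM scaling (edgeR 4.0.16), DESeq2 1.42.0 size factors, counts regardless of strand, totals without the highest gene, other minimum counts and pseudocounts, and leaving out each replicate.

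The members and lists were chosen with earlier results of these data known. The rule for named genes took the 3 genes, their neighbours by mean level, the 3 genes nearest in log2 ratio to each, genes sharing a seed (there were none) and up to 4 of the highest members of each list, , while further list members are named where their list comes up. List members without a row under the listed symbol (6 of Dlk1-Dio3, 3 of Sfmbt2, and Mir885, Mir486b, Mir142, Mir146a, Mir9-1 and Mir1a-2) were not analysed here.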

Additional observations from a re-analysis of the deposited data

How the results depend on the processing

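Mir483 stayed lower and Mir335 higher in replicate 1, both past the threshold, under all 9 alternatives, with log2 ratios from -0.60 to -0.55 and from 0.07 to 0.11. Mir675 stayed at or below -0.10 and never passed (adjusted p from 0.263 to 0.642 by the exact binomial test). Counts regardless of strand, which enlarge the totals, gave levels of 28600.0 CPM for Mir335, 2943 CPM for Mir483 and 136 CPM for Mir675. Totals without the highest gene gave 35421, 3654 and 169 CPM in the same order. Leaving out a replicate gave 30772 to 32723 CPM for Mir335, 2625 to 3914 CPM for Mir483 and 145 to 158 CPM for Mir675. With at least 1 count in each library 542 genes would be compared, with at least 100 counts 215, and with no minimum 700. The balance of all calls depended on the scaling, with 59 higher and 77 lower in replicate 1 by library totals and 66 and 65 by TMM or DESeq2 size factors. Of the other named genes, Mir106a no longer passed under 4 alternatives and Mir27b passed under 4, and Mir98, close to 0, changed sign under 3 without passing. No paired analysis was possible because there is 1 group. Leaving out a library leaves no ratio. The interval of Mir675, with its lower counts, is wider than those of Mir335 and Mir483.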
